A study of Mus musculus with 6 samples.

Results

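Described here are 10 immediate early genes, of the 52636 genes in the count files. They are Fos, Fosb, Fosl1, Fosl2, Jun, Junb, Egr1, Ier2, Atf3 and Dusp1. They form a named list, drawn up with earlier results of these data known, and all 10 were found by Ensembl identifier and had enough counts to be tested. RNA came from the mouse embryonic stem cell line E14, with 3 wild-type libraries and 3 from cells in which an enhancer cluster had been knocked out (Enhancer cluster-KO). Both groups had been maintained with LIF (10 ng/mL), the MEK inhibitor PD0325901 (1 µM) and the GSK inhibitor CHIR99021 (3 µM), and both were then differentiated for 4 days with retinoic acid (5 µM, written µm in the labels) after LIF and the inhibitors had been withdrawn. The libraries within a group are named biological replicates in the series text, which calls the cells NPC. The target is an enhancer cluster, so no count of a gene checks the knockout itself. No source used here says how many knockout clones there were, where the deletion lies or how long after the last medium change the cells were lysed.

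Immediate early genes are transcribed within minutes of a stimulus from factors already present in the cell, such as SRF with its ternary complex factor partners and CREB, which MAP kinases activate. Fos and Jun family proteins pair through leucine zippers to form AP-1, which binds DNA and drives later genes, and Egr1 is a zinc finger factor induced by the same kinases. Most of these transcripts are short-lived, and feedback proteins such as the phosphatase DUSP1 turn the kinases off. In stem cell cultures their levels follow growth factor signalling, serum and handling.

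Libraries held 7780368 to 9472916 gene counts, and levels are given as CPM, the count of a gene scaled to the library total after TMM normalisation. Over all 15816 tested genes 68.6% passed the test, a Benjamini-Hochberg adjusted p under 0.05 in edgeR's quasi-likelihood F test, with 34% lower and 34.5% higher in the knockout. The groups also differed in markers of cell type. Summed over 7 neural progenitor markers the wild-type libraries stood at 447 to 474 CPM and the knockout libraries at 122 to 131 CPM, and Sox1, a defining early neural marker, had no more than 23 counts in any library. The sums were 1689 to 1717 against 4803 to 4833 CPM for 8 endoderm markers, 3518 to 3539 against 562.3 to 577 CPM for 7 fibroblast-like markers and 721 to 743 against 413 to 432 CPM for 7 stem cell markers. Single markers also went against these sums, with 2 neural progenitor, 2 stem cell and 1 fibroblast-like marker higher and 1 endoderm marker lower in the knockout. Sox2 stands in both the neural progenitor and the stem cell list, so these sums are not fully separate. Of 4 blood and immune markers, Ptprc, Hbb-bt and Hba-a1 had no counts. Mitochondrially encoded genes held 1.67 to 1.73% of gene counts in wild type and 2.58 to 2.89% in the knockout, and genes over ribosomal RNA repeats held 1.04% in knockout replicate 1 against 0.0726 to 0.118% elsewhere. The part of these differences in the results below was not tested, and in such bulk samples fewer cells of a type and less RNA per cell cannot be told apart.

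Of the 10 genes, 9 were lower in the knockout (34% of all tested genes were), 0 were higher and 1, Egr1, did not pass the test. Fosl1, counted among the 9, passed the count filter only through its wild-type libraries, and such a gene can be called lower but hardly higher. In those 9 every knockout library also lay below every wild-type library, a separation seen downward in 35.4% and upward in 35.5% of all tested genes (70.9% either way). The median log2 fold change was -1.35, against 0.0091 over all tested genes. Regardless of direction, the median size over all tested genes was 0.49, larger than the falls of Fos (0.31) and Jun (0.47). Summed over the 10 genes, wild-type libraries held 585, 577 and 554.5 CPM and knockout libraries 250.7, 259.5 and 256.5 CPM. The falls were unequal and ranged from 0.31 on the log2 scale for Fos to 3.77 for Fosl1.

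**Figure D1:**
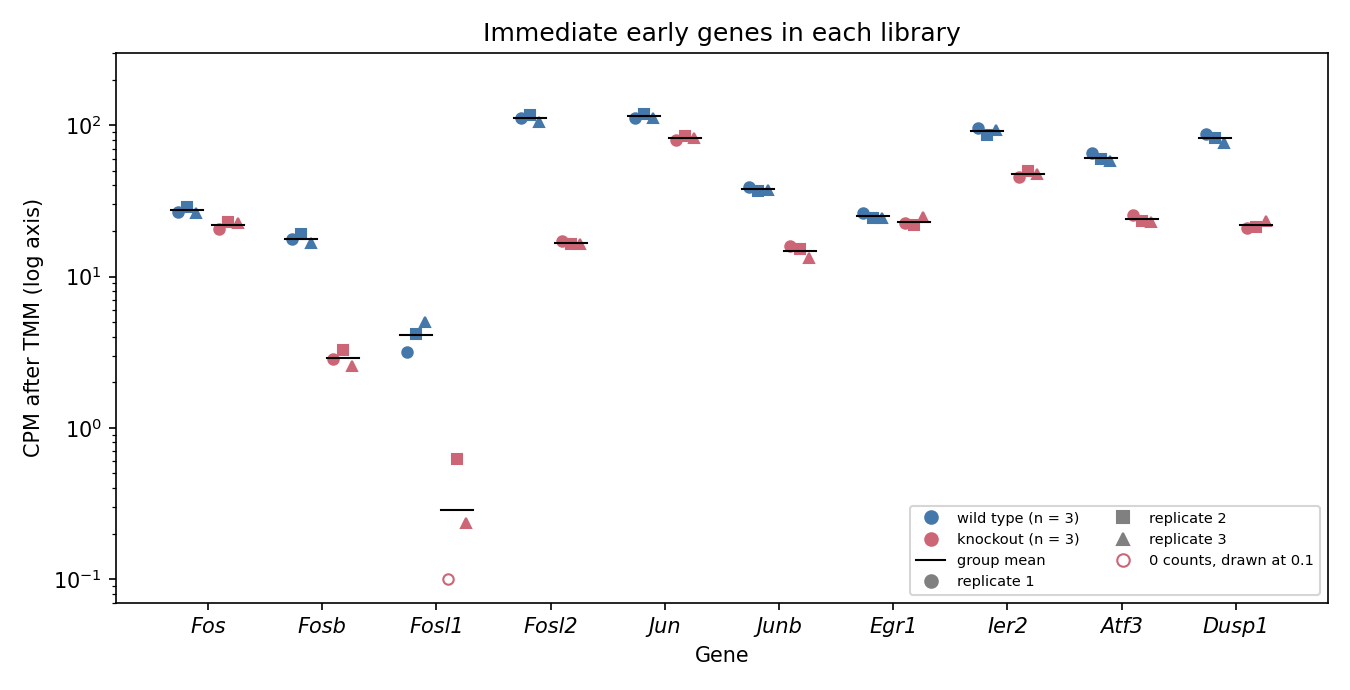
CPM of each gene in each library on a log axis, with blue points for wild type, red points for the knockout, marker shapes for replicates and lines for group means. The knockout points lie below all wild-type points in every gene except Egr1, and the open point is Fosl1 in knockout replicate 1, which had 0 counts.

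RefSeq promoter entries (GRCm38.p6) were found for Fos, Fosb, Fosl2, Jun, Junb, Atf3 and Dusp1, 7 of the 10 genes, and not for Fosl1, Egr1 and Ier2. The bases before the start of transcription are given 5′ to 3′ on the strand of the gene for Fos and Jun, which fell least among the 9, and for Fosb and Dusp1, which fell much, to set their sequences side by side. Each window is 250 bases long, less any bases next to the start that GENCODE M21 places in an exon (6 for Fosb and 47 for Dusp1). All 250 bases of the Fosl2 window lie in its first GENCODE exon and are not printed. Capitals mark TGACG, the core bound by CREB and ATF factors, its palindromic form TGACGTCA, the Jun site TGACATCA, the Egr site GCGNGGGCG and the TATA motif TATAAA.
Fos, chr12:85473640-85473889, plus strand: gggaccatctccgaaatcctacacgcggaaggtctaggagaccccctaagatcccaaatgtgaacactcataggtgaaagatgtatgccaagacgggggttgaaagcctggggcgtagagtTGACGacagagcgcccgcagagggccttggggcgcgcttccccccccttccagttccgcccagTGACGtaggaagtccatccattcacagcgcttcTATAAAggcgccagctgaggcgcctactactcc
Jun, chr4:95052223-95052472, minus strand: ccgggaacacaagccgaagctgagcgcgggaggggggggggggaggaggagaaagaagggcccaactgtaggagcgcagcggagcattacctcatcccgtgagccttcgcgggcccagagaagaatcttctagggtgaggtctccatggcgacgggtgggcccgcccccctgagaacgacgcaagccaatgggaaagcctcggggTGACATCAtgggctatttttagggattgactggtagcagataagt
Fosb, chr7:19310052-19310295, minus strand: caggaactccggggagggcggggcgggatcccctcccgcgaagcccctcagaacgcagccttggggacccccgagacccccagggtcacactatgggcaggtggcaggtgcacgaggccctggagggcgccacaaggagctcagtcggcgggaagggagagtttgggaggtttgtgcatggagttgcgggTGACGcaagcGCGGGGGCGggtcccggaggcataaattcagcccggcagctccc
Dusp1, chr17:26508520-26508722, minus strand: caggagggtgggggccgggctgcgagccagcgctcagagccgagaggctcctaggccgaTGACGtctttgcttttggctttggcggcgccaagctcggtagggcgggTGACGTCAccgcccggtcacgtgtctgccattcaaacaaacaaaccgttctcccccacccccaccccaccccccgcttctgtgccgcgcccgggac

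Over the full 250 bases, TGACG, searched on both strands and contained in TGACGTCA, lay in 5 of the 7 promoters (Fos, Fosb, Junb, Atf3 and Dusp1), against 17.8% of 32851 RefSeq promoters. Those promoters were not matched to the 7 for base content. In Fos it began 129 and 66 bases before the start, and in Fosb 60 bases before it. The match in Atf3 began 7 bases before the start, within the 7 bases of its window that GENCODE M21 places in an exon. TGACGTCA was found in Dusp1, 143 bases before the start, and in 1.55% of all promoters. TGACATCA was found in Jun, 45 bases before the start (2.93% of all). GCGNGGGCG lay in Fosb and Fosl2 (4.70% of all) and TATAAA in Fos (12.4% of all). The AP-1 site TGAGTCA (4.46% of all) and CCGGAA, a form of the ETS site (12.0% of all), were in none of the 7. Nor was the CArG box bound by SRF (CC, then any 6 of A or T, then GG, in 1.47% of all). This says only that these letters are not in this window, and other forms of these sites were not searched. On the log2 scale the 5 genes with TGACG fell by 0.31 (Fos), 1.35 (Junb and Atf3), 1.91 (Dusp1) and 2.62 (Fosb). Any relation of this site to the size of the fall was not tested.

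The Fos family held the 3 largest falls of the 9 and also the smallest. Fos itself (ENSMUSG00000021250, chr12:85473890-85477273 on mm10), the founding subunit of AP-1, measured 26.8, 28.7 and 26.4 CPM in wild-type replicates 1 to 3, with knockout values of 20.7, 23.0 and 22.5 CPM. The groups did not overlap but lay close together. Fos fell by 0.31 (SE 0.10, n = 3 per group, adjusted p = 0.0110 by edgeR), which left 80.7% of the wild-type level. This call came nearest to the threshold without wild-type replicate 2 (adjusted p = 0.0471) and without knockout replicate 1 (adjusted p = 0.0404).

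Fosl2 (ENSMUSG00000029135, chr5:32135801-32157842), which encodes the AP-1 subunit FRA2, was the most abundant of the family by CPM in wild type, at 110.9, 117 and 105.5 CPM. In the knockout it stood at 17.1, 16.3 and 16.5 CPM, a narrow range far below the wild-type values. It fell by 2.74 (SE 0.074, adjusted p = 4.6e-21 by edgeR), or 6.68-fold. Only 0.86% of all tested genes had a lower log2 fold change.

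Fosb (ENSMUSG00000003545, chr7:19302696-19310051), a close relative of Fos, had wild-type values of 17.6, 19.0 and 16.7 CPM and knockout values of 2.83, 3.24 and 2.58 CPM. It fell by 2.62 (SE 0.18, adjusted p = 1.11e-12 by edgeR), or 6.16-fold, with groups far apart. Fosl1 (ENSMUSG00000024912, chr19:5447547-5455946), which encodes FRA1 and is itself induced by AP-1 in many cells, was scarce. Its wild-type counts were 27, 39 and 41 and its knockout counts 0, 5 and 2.

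Fosl1 fell by 3.77 (SE 0.51, adjusted p = 3.31e-07 by edgeR), and the size rests on few reads, since the log2 fold change was -4.91 without knockout replicate 2 and -3.24 without knockout replicate 1. Ccdc85b, on the opposite strand, shares 57.2% of the exon length of Fosl1, and no source used here says whether counting was stranded, so reads there cannot be told apart. The wild-type counts of Ccdc85b were 122, 135 and 125 and its knockout counts 78, 75 and 90, a log2 fold change of -0.56 (SE 0.14). How many reads of Fosl1 come from the shared stretch was not tested.

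Jun and Junb fell by less than Fosb, Fosl1 and Fosl2. Jun (ENSMUSG00000052684, chr4:95049034-95052222), the main partner of Fos proteins in AP-1, gave 112.1, 118.6 and 112.4 CPM in the wild-type libraries, against 79.9, 85.4 and 82.6 CPM in those with the knockout. It fell by 0.47 (SE 0.049, adjusted p = 3.69e-09 by edgeR), leaving 72.2% of the wild-type level with no overlap. Junb (ENSMUSG00000052837, chr8:84974484-84978718), a subunit that often opposes Jun, stood at 39.1, 36.5 and 37.4 CPM against 15.8, 15.1 and 13.4 CPM. It fell by 1.35 (SE 0.11, adjusted p = 1.86e-11 by edgeR), or 2.55-fold.

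Both Jun genes are partly covered by genes on the other strand. Junos covers 7.28% of the exon length of Jun and had a log2 fold change of -0.54 (SE 0.13). Prdx2 covers 7.52% of that of Junb, with a log2 fold change of -0.043 (SE 0.043) and a density of 59.3 CPM per kilobase in wild type and 57.6 in the knockout, above that of Junb in both groups. How many reads of Junb come from this stretch was not tested.

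Among the genes outside the Fos and Jun families, Atf3 (ENSMUSG00000026628, chr1:191170296-191218039), a bZIP factor of stress responses that can pair with Jun proteins, stood at 65.4, 59.3 and 58.4 CPM in wild type. In the knockout it stood at 25.5, 23.2 and 23.1 CPM. It fell by 1.35 (SE 0.084, adjusted p = 1.8e-13 by edgeR), or 2.55-fold, as much as Junb. Ier2 (ENSMUSG00000053560, chr8:84661331-84662852), a small nuclear protein gene induced by growth factors, went from 96.3, 86.4 and 92.3 to 45.2, 49.5 and 47.9 CPM. Ier2 fell by 0.94 (SE 0.064, adjusted p = 8.91e-13 by edgeR), leaving 52.0% of the wild-type level.

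Dusp1 (ENSMUSG00000024190, chr17:26505590-26562128), the nuclear phosphatase that inactivates p38, JNK and ERK, gave wild-type values of 87.5, 82.6 and 75.8 CPM and knockout values of 21.0, 21.3 and 23.2 CPM. It fell by 1.91 (SE 0.081, adjusted p = 5.44e-17 by edgeR), or 3.75-fold, and the groups were far apart.

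Egr1 (ENSMUSG00000038418, chr18:34859823-34864984) was the exception. Its wild-type values were 26.1, 24.2 and 24.5 CPM and its knockout values 22.5, 21.8 and 24.6 CPM, and knockout replicate 3 lay above wild-type replicates 2 and 3. The log2 fold change was -0.12 (SE 0.11, adjusted p = 0.332 by edgeR), or 92.2% of the wild-type level, and it ranged from -0.17 to -0.080 over the alternative settings without passing in any of them. A miss of the threshold does not show that Egr1 was equal in both groups.

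**Figure D2:**
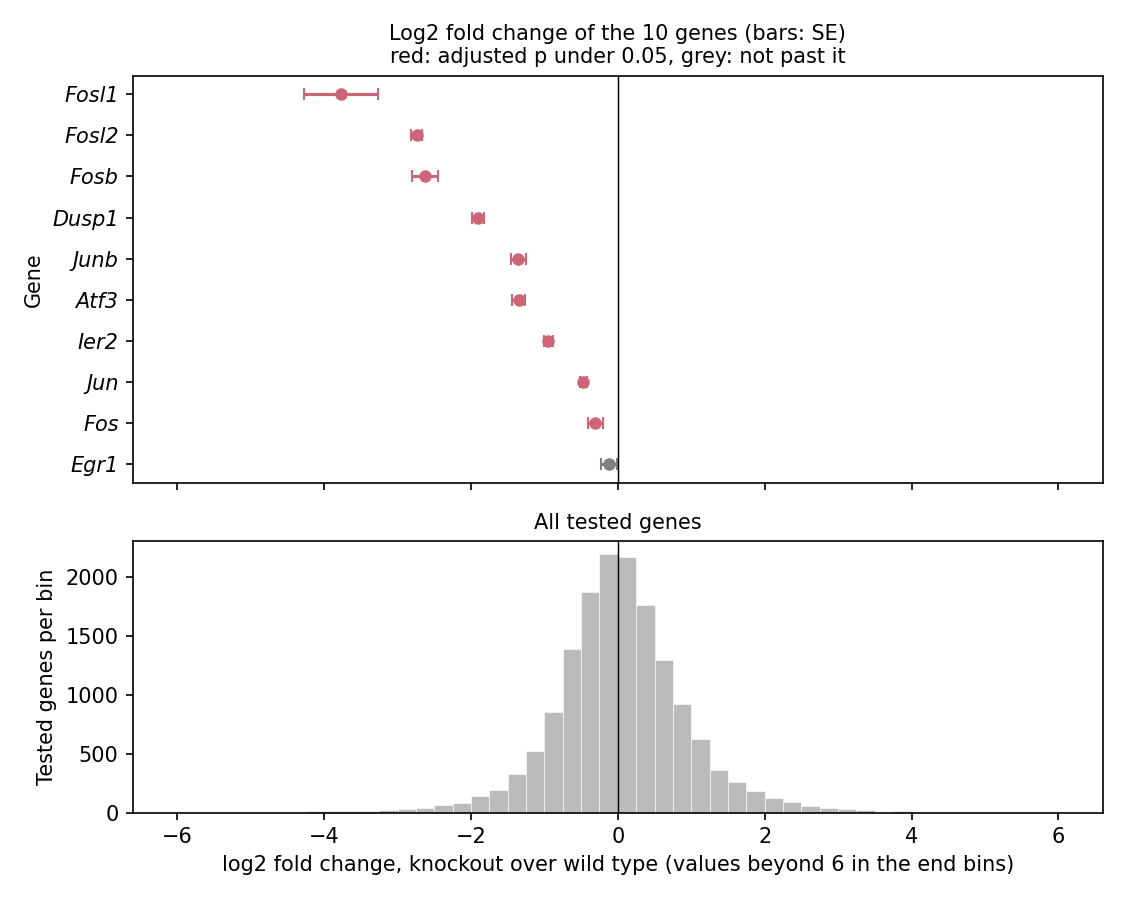
The upper panel plots the log2 fold change of each gene, knockout over wild type, with bars of 1 SE, red where the gene passed the test and grey where it did not. The lower panel gives the number of tested genes per bin of the same scale. The 10 genes spread from -3.77 for Fosl1 to -0.12 for Egr1. All tested genes spread to both sides of 0, with a median absolute log2 fold change of 0.49.

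Replicates within a group agreed closely for all but the scarcest gene. The coefficient of variation was 3.20 to 7.15% in wild type for the 9 genes other than Fosl1 and 2.49 to 11.7% in the knockout, and it was 22.3 and 110.2% for Fosl1. Over all genes knockout replicate 1 stood apart from its group, with a chi-square per degree of freedom of 5.96 and 7.14 against the other knockout libraries, which gave 2.41 between them, and 2.31% of its reads were unaligned against 1.23 to 1.38% elsewhere. For the 10 genes it was not uniformly high or low. Wild-type replicate 1 was the highest of its group for 5 genes, replicate 2 for 4 and replicate 3 for 1, and among knockout libraries replicate 1 was highest for 3, replicate 2 for 5 and replicate 3 for 2. With any single library left out, the count stayed at 9 lower and 0 higher.

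Levels of different genes were compared per length, as CPM per kilobase of merged exons. In wild type Ier2 was highest at 60.2 ± 3.27 (SD, n = 3), followed by Jun at 35.9 ± 1.15, Atf3 at 28.3 ± 1.76, Dusp1 at 24.8 ± 1.77 and Junb at 16.4 ± 0.587. Fos at 11.6 ± 0.526 and Fosl2 at 11.5 ± 0.604 overlapped, an overlap that rests on the merged-exon length of Fosl2, and Egr1 at 5.57 ± 0.226, Fosb at 2.85 ± 0.190 and Fosl1 at 2.03 ± 0.452 closed the order. By merged exons, all other neighbours in this order were apart in every library. Merged exons hold 3311 bases for Dusp1 and its longest transcript 2313, so its place in the order of either group also rests on the length used.

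In the knockout the order by merged exons began alike, with Ier2 at 31.2 ± 1.43, Jun at 25.9 ± 0.859 and Atf3 at 11.1 ± 0.635. Fos came next at 9.38 ± 0.497, above Dusp1 at 6.60 ± 0.356 and Junb at 6.42 ± 0.556, which overlapped. Egr1 at 5.13 ± 0.320 now stood above Fosl2 at 1.72 ± 0.0429. Fosb at 0.462 ± 0.0539 and Fosl1 at 0.141 ± 0.155 remained last.

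Because the Fos genes fell by unequal amounts, the make-up of the family shifted. Of all Fos-family reads per kilobase, Fos held 41.9, 41.5 and 41.1% in wild-type replicates 1 to 3, against 79.9, 79.5 and 81.1% in knockout replicates 1 to 3. Fosl2 held 42.0, 41.2 and 40.0%, against 16.0, 13.8 and 14.5%. With merged exons the wild-type shares of Fos and Fosl2 were close, but with the longest transcript as length they were 35.1% for Fos and 46.1% for Fosl2. In the knockout Fos held most of the family by either length, 80.1% or 75.1%. The share of Fosb went from 10.2 ± 0.322 to 3.95 ± 0.393% and that of Fosl1 from 7.26 ± 1.68 to 1.16 ± 1.26% (SD, n = 3). For each of these shares the groups did not overlap and the two-sided exact permutation p was 0.1, the smallest that 3 against 3 libraries can give, so none could pass 0.05.

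In the Jun family, Jun held 64.7 ± 0.724% of reads per kilobase in wild type and 72.9 ± 1.72% in the knockout, and Junb went from 29.6 ± 1.65 to 18.05 ± 1.45%. Jund, the subunit least dependent on stimuli, went from 5.66 ± 1.30 to 9.09 ± 0.610%, with wild-type counts of 32, 58 and 47 and knockout counts of 41, 48 and 42. Its log2 fold change was 0.037 (SE 0.23) and did not pass the test. Gm11175, on the opposite strand, shares 52.6% of the exon length of Jund. Summed over both families, AP-1 transcripts went from 83.4 ± 2.43 to 47.3 ± 1.68 CPM per kilobase. The Fos family stood at 0.418 of its wild-type sum and the Jun family at 0.642, and the ratio of Fos-family to Jun-family reads per kilobase went from 0.505 ± 0.0117 to 0.329 ± 0.0132. Each of the 11 comparisons of AP-1 shares, sums and ratio had an exact permutation p of 0.1, and also 0.1 after Benjamini-Hochberg adjustment.

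**Figure D3:**
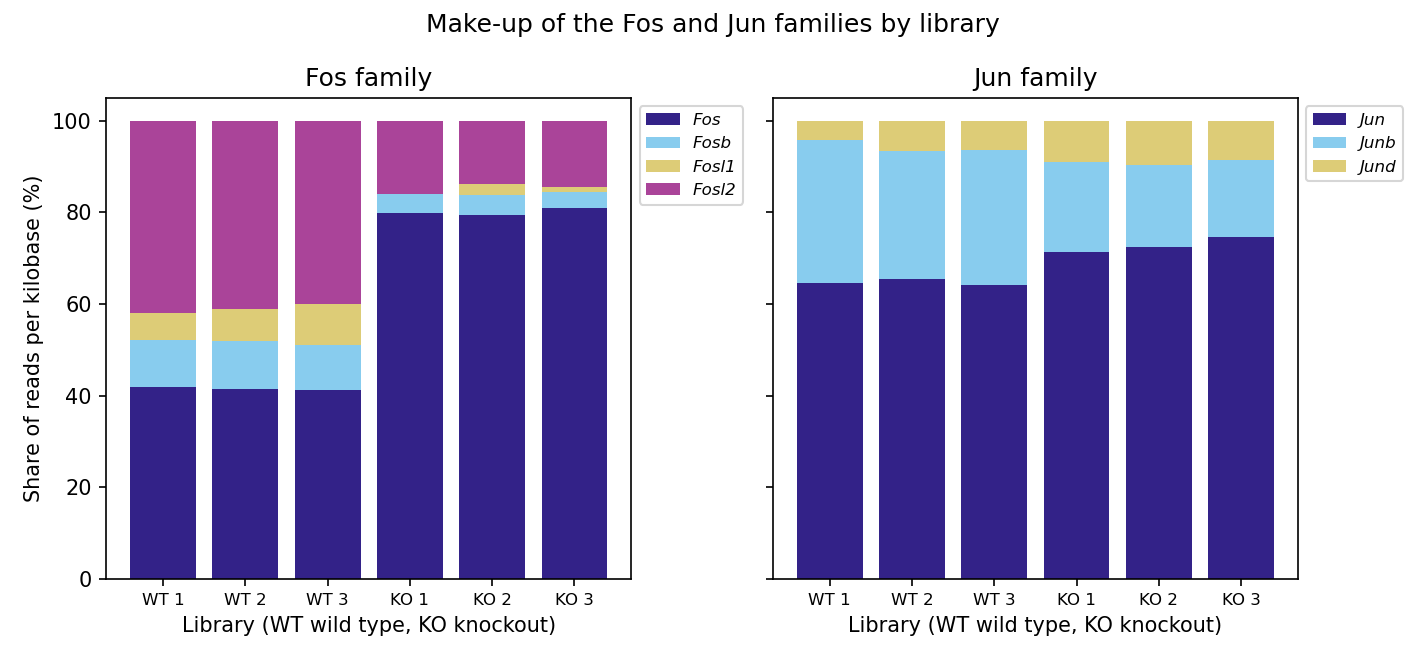
Stacked bars give the share of reads per kilobase held by each member of the Fos family (left) and the Jun family (right) in each library, in percent. Fos takes 41.1 to 41.9% in the wild-type bars and 79.5 to 81.1% in the knockout bars, while the bars of the Jun family differ less.

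The genes share a low number of exons, which their selection did not use. In the longest coding transcript of each (GENCODE M21), all 10 have at most 4 exons, against 21.6% of 13197 tested coding genes, and Jun, Junb and Ier2 have a single one. Gene span, between the outermost ends of all annotated transcripts of a gene, was less uniform, with a median of 6.26 kb against 24.8 kb. Dusp1 at 56.5 kb and Atf3 at 47.7 kb exceeded the median of all those genes. The RefSeq promoter windows of Dusp1 and Atf3 lie inside these spans, so transcripts that begin there cover less. Downstream of the stop codon, 9 of the 10 hold the pentamer ATTTA, against 69.7% of the 13197 tested coding genes. ATTTA is a core of the AU-rich elements that shorten the life of a transcript. The median was 2.12 per kilobase against 1.29. Dusp1 with 5.80 and Fos with 4.91 per kilobase were the densest, and Ier2 had none. Fosb had 0.466 per kilobase. Any relation of this density to the size of the falls was not tested.

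Other genes of the same pathways were followed in lists. Other AP-1 subunits and bZIP partners moved both ways. Of 14 listed, 13 were tested, with 5 that rose, 4 that fell and a median log2 fold change of 0.037. The share called, 69.2%, was near the 68.6% of all tested genes. Ddit3, which encodes the stress factor CHOP, rose by 2.86 (SE 0.049), from 41.2 ± 0.985 to 299.8 ± 7.79 CPM, while Atf4, its upstream activator in the stress response, fell by 0.50 (SE 0.038). Atf7, a relative of Atf2, rose by 1.03 (SE 0.068) and Mafg, a small Maf protein gene, fell by 0.95 (SE 0.047). The adjusted p by edgeR was 2.76e-25 for Ddit3. Gm28047, on the same strand, shares 11.7% of the exon length of Atf7.

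The rest of the Egr family was barely detected. Egr2 had wild-type counts of 3, 4 and 6 and knockout counts of 0, 0 and 2, and Egr3 and Egr4 had at most 7 counts in any library, so none of the 3 was tested. Of their corepressors, Nab2, itself an Egr target, fell by 0.63 (SE 0.12, adjusted p = 6.59e-05 by edgeR), though 42.2% of its exon length is shared with opposite-strand genes. Nab1, at -0.22, did not pass, but did when wild-type replicate 3 or knockout replicate 2 was left out, giving 2 lower genes in this list.

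Among 42 other immediate early genes 40 were tested, of which 23 fell and 9 rose, with a median of -0.36. That makes 80% called, against 68.6% of all tested genes. Klf2 and Klf4 of this list are also among the stem cell markers, and Maff is also among the bZIP partners. Ccn2 and Ccn1, matrix proteins induced through SRF and YAP, fell by 3.06 (SE 0.054) and by 1.69 (SE 0.044). Plk2, a serum-induced kinase, fell by 2.30 (SE 0.048), from 306.4 ± 2.54 to 62.2 ± 3.23 CPM, and Rhob, a serum-induced small GTPase, fell by 2.03 (SE 0.045). The list ran from -5.74 for Ptgs2 to 1.97 for Btg1, an antiproliferative gene. A gene on the other strand covers 23.2% of the exon length of Ccn2.

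Transcription factors that act on immediate early promoters were mostly lower, with 9 of 11 that fell, 1 that rose and a median of -0.40, where 34% of all tested genes were lower and 34.5% higher. Srf was among those that fell, by 0.33 (SE 0.059). Elk3 and Elk4, ternary complex factors, fell by 1.40 (SE 0.12) and by 0.92 (SE 0.13), while the third, Elk1, rose by 0.56 (SE 0.11). Mrtfb, an actin-regulated partner of SRF, fell by 0.84 (SE 0.080) and Ep300, a coactivator, fell by 0.45 (SE 0.046). Creb1 was at 0.028 (SE 0.074) and did not pass.

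Genes of the ERK, JNK and p38 cascades moved both ways, 12 higher and 10 lower among 28 tested, with a median of 0.071. Over all tested genes 34.5% were higher and 34% lower, so both counts lay near the background. Mapk3, encoding ERK1, rose by 0.99 (SE 0.049), while Map2k2, encoding the kinase MEK2 upstream of it, fell by 0.82 (SE 0.052). Mapk14, encoding p38 alpha, fell by 0.82 (SE 0.047) and Rps6ka3, a kinase downstream of ERK, fell by 1.37 (SE 0.044).

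Of the other MAP kinase phosphatases 4 of 9 fell and 2 rose, or 1 without wild-type replicate 1, with a median of -0.25. The share called was 66.7%, near the 68.6% of all tested genes. Dusp5 and Dusp4, nuclear phosphatases like Dusp1, fell by 3.12 (SE 0.069) and by 1.68 (SE 0.067). Dusp6, the cytoplasmic ERK phosphatase, fell by 3.19 (SE 0.058), whereas Dusp9, another cytoplasmic one, rose by 0.63 (SE 0.039), from 500.9 ± 13.3 to 776.4 ± 49.9 CPM. A gene on the other strand covers 22.1% of the exon length of Dusp5.

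Of 18 genes listed as targets of AP-1, 14 were tested, 11 fell and 2 rose, or 1 without wild-type replicate 3, and the median was -1.31. Over all tested genes 34% were lower and 34.5% higher. Hbegf, an EGF receptor ligand, fell by 2.67 (SE 0.082), Mmp9, a matrix protease, by 2.03 (SE 0.058), and Ccnd1, encoding cyclin D1, by 3.78 (SE 0.11). The 2 that rose were Vegfa (0.14, SE 0.044) and Spp1 (0.24, SE 0.043). A gene on the other strand covers 23.4% of the exon length of Ccnd1. These genes also respond to other factors, and the part of AP-1 in their change was not tested.

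**Figure D4:**
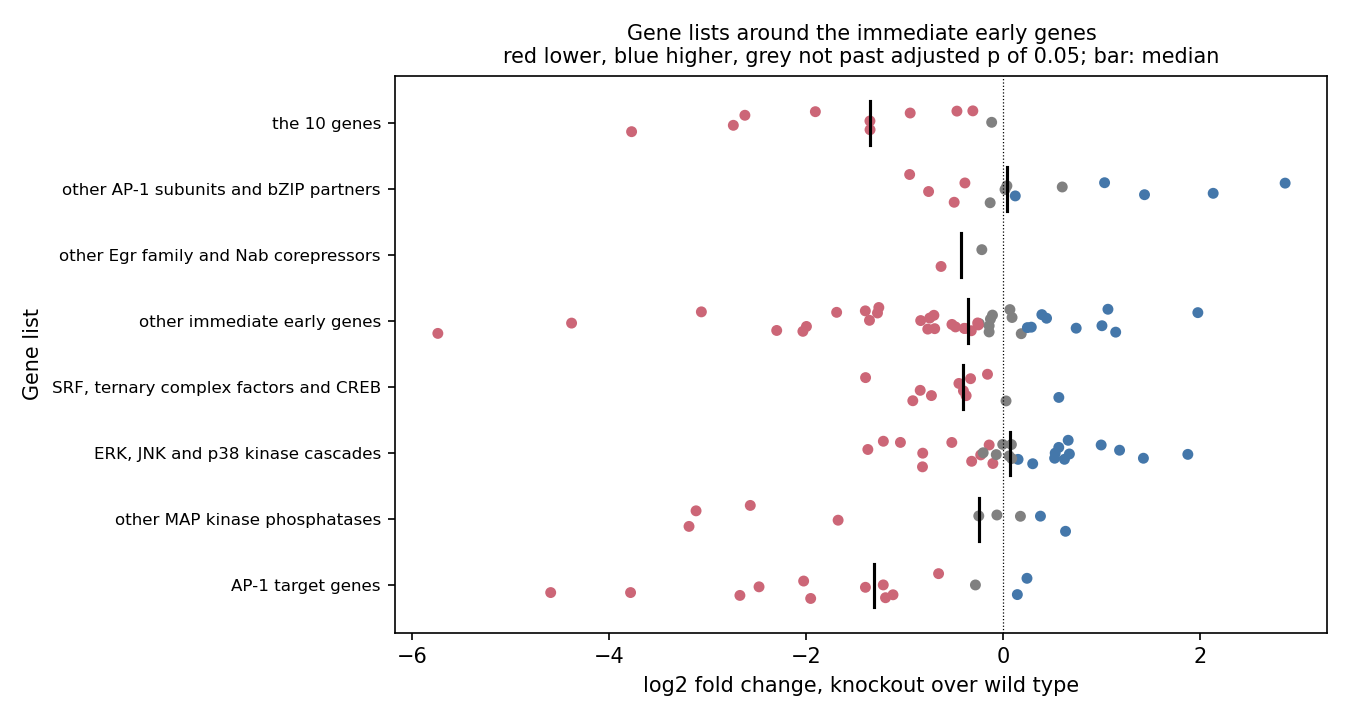
Each point is a tested gene, placed by its log2 fold change of knockout over wild type in the row of its list, red if lower, blue if higher and grey if it did not pass the test, with a bar at the list median. The medians lie at -1.35 for the 10 genes and -1.31 for AP-1 targets, and at 0.071 for the kinase cascades and 0.037 for other AP-1 subunits.

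The genes whose pattern was most like that of the 10 were sought among the 10968 tested genes outside the lists that had a mean CPM of at least 5 and a symbol other than a predicted-gene name, by the Euclidean distance over the 6 libraries between log2 CPM centred on each gene's mean and the mean centred profile of the 10. They were Anxa2, a calcium-dependent membrane-binding protein (distance 0.0389, log2 fold change -1.50), Gli3, a Hedgehog pathway factor (0.0925, -1.50), and Cryab, a small heat shock protein (0.1005, -1.47). With 2 groups, such a distance mostly matches the size of the fall.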

How the data were processed

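The authors deposited 1 table of read counts per Ensembl gene for each library, whole numbers and not normalised. HISAT2 2.1.0, HTSeq 0.9.1, DESeq2 1.18.1 and build mm10 are named in the submitters' processing notes. No source used here gives the annotation release or strand setting. The 5 HTSeq tallies of reads outside genes stayed out of all totals, and 36.0 to 38.4% of reads lay in genes. A larger part, 42.3 to 43.5%, was tallied as lying in no annotated feature. Symbols and lengths came from GENCODE M21 (GRCm38, the same build as mm10), which matched 52489 of 52636 identifiers.

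Counts were tested with edgeR 4.0.16 (R 4.3.3), knockout against wild type over all 6 libraries, with filterByExpr (minimum count 10), TMM and quasi-likelihood F tests, adjusted by Benjamini-Hochberg over 15816 genes at a threshold of 0.05. The SE is the fold change divided by the root of F. The procedure was also run on simulated counts in which, unlike in these data, only a small part of the genes changed. Shares and sums were compared by exact permutation. All 10 genes are named, and up to 4 called genes per other list by smallest adjusted p, with other genes, chosen after their values were seen, as context. A gene that this rule names is not reported here. Genes, lists and motifs were chosen with earlier results of these data known. Alternatives were RLE and upper-quartile scaling, other filters, DESeq2 1.42.0, limma-voom (limma 3.58.1), a replicate block, mitochondrial genes left out, each library left out and, added after seeing the data, ribosomal RNA locus genes left out.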

Additional observations from a re-analysis of the deposited data

How the results depend on the processing

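The counts of 9 genes lower and 0 higher were the same under every alternative, whether by scaling, filter, DESeq2, limma-voom, genes left out or libraries left out. Over all genes the number called ranged from 10359 with 1 library left out to 11424 with no filter, against 10848. Replicate numbers are shared between the groups but did not pair the libraries, with correlations of deviations from the group means of -0.0131 to 0.0133 for same-numbered libraries. With the replicate block 9 of the 10 genes were lower, and 10862 of all genes were called. The make-up of the families depends on gene length. With the longest transcript in place of merged exons, the knockout share minus the wild-type share was 40.0 percentage points for Fos (38.6 with merged exons), -7.27 for Fosb (-6.23), -27.8 for Fosl2 (-26.3) and 9.53 for Jun (8.12), and the AP-1 sum differed by -45.5 CPM per kilobase (-36.1). Low counts limit the precision for Fosl1 and left Egr2, Egr3 and Egr4 untested, and library scaling hides any difference in RNA content per cell.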
